A study of Mus musculus with 6 samples.

Results

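The genes described here encode 10 proteins of small nucleolar RNA particles (snoRNPs) or of their assembly: Fbl, Nop58, Rrp9, Dkc1, Nhp2, Nop10, Gar1, Naf1, Nolc1 and Ncl. They were taken as a named set, and each was read from probe sets, groups of array probes summarised to 1 value, that the array's annotation assigned to exactly 1 gene symbol. Of the 10 genes, 9 had such a probe set, 1 each, among the 22180 genes measured in this way. Fbl was present only on a probe set annotated to both Fbl and Tulp4, so it has no value under its own name here.

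Small nucleolar RNAs guide the chemical modification of ribosomal RNA in the nucleolus. Those of the box C/D class direct methylation of the ribose by fibrillarin, the product of Fbl, in a particle with Nop56, Nop58 and Snu13. Those of the box H/ACA class direct the conversion of uridine to pseudouridine by dyskerin, the product of Dkc1, in a particle with Nhp2, Nop10 and Gar1, and dyskerin with its partners also binds the RNA of telomerase. Most of the guide RNAs of mammals lie in introns of other genes and are released when the host transcript is spliced, so the level of a guide RNA and the level of the mRNAs for its proteins are separate measurements.

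The samples were lungs of 6 CD1 mice, an outbred strain, all 10 weeks old. The 3 intact mice had a sham procedure, and the 3 preconditioned mice had 90 minutes of low-pressure ventilation, followed by 1 week until their lungs were sampled. No genetic alteration or further treatment is given for either group, and each mouse had its own 1-colour array. All values are log2 RMA values as deposited, so that a difference of 1 is a doubling, and differences are preconditioned minus intact throughout. Where 3 values of a group are given, they are those of replicates 1, 2 and 3. These values cannot tell fewer cells of a type from less RNA per cell, and they have no read depth, so the number of arrays limits their precision.

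The 14 lung cell markers measured, among them those of alveolar, airway, endothelial and immune cells, all had mean levels above the median of all genes, 5.95. Their average level lay at 10.5 to 10.6 in intact and 10.3 to 10.4 in preconditioned lungs. The averages of other marker lists differed between mice. The 7 neutrophil markers averaged 5.76 to 7.67 in intact and 5.44 to 5.58 in preconditioned lungs, with Ly6g, Retnlg and S100a8 at or below the median level of all genes. The 6 mesothelial markers averaged 7.76 to 8.21 and 6.67 to 7.43, with Bnc1 at or below that level. All 7 and all 6 had differences below 0. The average of the 7 heart muscle markers was 8.10 to 8.62 in intact lungs, and preconditioned replicates 1, 2 and 3 had 6.26, 9.49 and 7.73. The fat cell (5 measured), thymocyte (5) and dividing cell (12) averages overlapped between the groups, with ranges of 5.09 to 6.03, 5.26 to 5.45 and 5.64 to 5.86 over all arrays. The part of any of these in the results on snoRNP proteins was not tested.

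Preconditioned and intact lungs were compared to see which of these mRNAs differed 1 week after ventilation. None of the 9 measured members passed an adjusted p of 0.05 in limma, with Benjamini-Hochberg adjustment over all 22180 genes, where 0.0947% of genes passed (13 lower and 8 higher). The lowest adjusted p of a member was 0.136, for Naf1, and over the alternative settings the lowest member adjusted p ranged from 0.0512 to 0.389. At an unadjusted p under 0.05, Naf1, Nop10 and Nop58 had lower values in preconditioned lungs and no member had higher ones, against 11.6% lower and 7.53% higher over all genes. All 9 members lay above the median level of all genes, and there the share with an unadjusted p under 0.05 was 20.1% lower and 5.50% higher.

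Of the 9 differences, 6 were below 0 and 3 above. The median was -0.25, beside a median of 0.01 and 47.3% of differences below 0 over all genes. Among genes above the median level the median difference was -0.09. There 64.6% of differences were below 0, which is close to the members' 6 of 9. Naf1 and Nop10 had every preconditioned value under every intact one, which is 2 of 9 members against 13.0% of all genes and 22.2% of those above the median level. The count of members at an unadjusted p under 0.05 was 3 as reported and fell to 1 with a repeated quantile normalization, with cyclic loess, without intact replicate 2 and without preconditioned replicate 1. In each of those the remaining one was Naf1. The shares of genes above the median level that were lower at that p were then 14.1%, 14.2%, 12.9% and 18.9%. The count was 2 with a replicate block, without intact replicate 3 and without preconditioned replicate 2, beside 18.0%, 12.6% and 16.2%. It rose to 4 with array weights and without intact replicate 1, beside 25.9% and 26.6%.

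**Figure D1:**
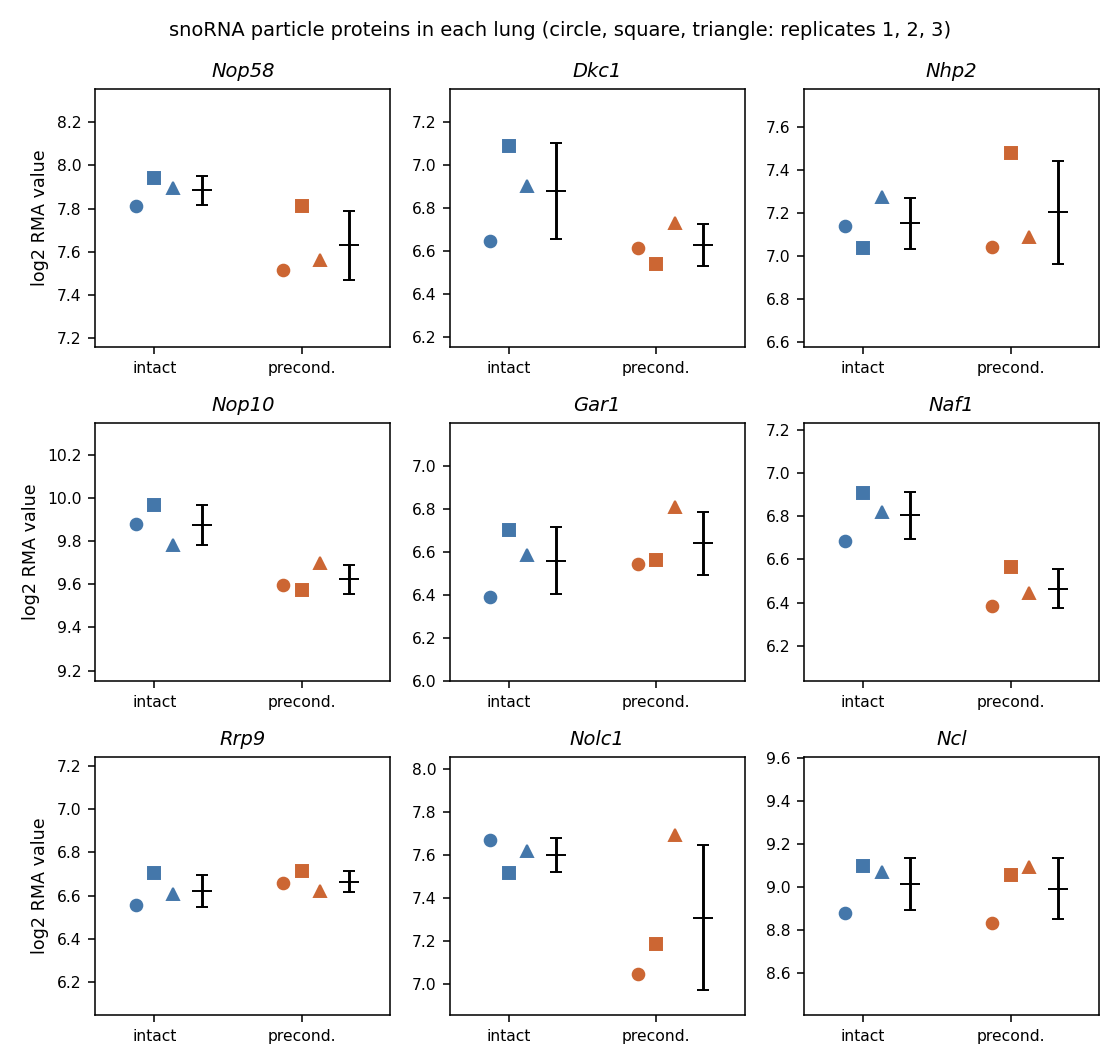
Log2 RMA value of each of the 9 measured genes (y axis, log2 units, the same span in every panel) in 3 intact (blue) and 3 preconditioned (orange) lungs. Points are single mice, and black bars are the mean ± SD of each group. Only Naf1 and Nop10 show all preconditioned values under all intact values, while Nolc1 has 1 preconditioned mouse, replicate 3 at 7.69, above all intact mice.

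Among the proteins of box C/D particles, Nop58 was at 7.81, 7.94 and 7.90 in intact replicates 1, 2 and 3 and at 7.51, 7.81 and 7.56 in the preconditioned ones. Nop58 is a structural core protein that holds the guide RNA and fibrillarin. Preconditioned replicates 1 and 3 lay under every intact mouse, and preconditioned replicate 2 lay level with intact replicate 1. The group means were 7.88 ± 0.067 and 7.63 ± 0.16 (SD, n = 3), a difference of -0.25 (95% interval -0.50 to -0.01, 1.19-fold lower, limma adjusted p = 0.247). With a repeated quantile normalization, and with cyclic loess, it was -0.16.

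Rrp9 encodes a protein specific to the particle of U3, the box C/D RNA that takes part in cleavage of the ribosomal RNA precursor rather than in its methylation. Its values were 6.56, 6.70 and 6.61 in the intact mice and 6.66, 6.72 and 6.62 in the preconditioned mice. The groups overlapped throughout, and the spread over all mice was narrow. The difference was 0.04 (95% interval -0.16 to 0.24, limma adjusted p = 0.819). It was -0.01 after median centring.

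Fbl could be seen only through the probe set shared with Tulp4, a gene of another family. That probe set read 7.49, 7.43 and 7.23 in the intact mice and 7.55, 7.54 and 7.84 in the preconditioned mice. The preconditioned values were all above the intact ones, opposite to the direction of Nop58. How much of this signal belongs to either gene was not tested, so it is not counted among the members.

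The other core proteins of the class, Snu13 and Nop56, are outside the set of 10 and are given for comparison. Snu13, which binds the kink of the guide RNA, read 8.89, 9.17 and 9.03 in the intact mice and 8.71, 8.82 and 8.88 in the preconditioned mice on its brighter probe set. The difference was -0.22 (limma adjusted p = 0.293), with the groups just apart, and its dimmer probe set, at a mean of 5.64 in intact lungs, gave 0.10. Nop56 gave different answers on its 3 probe sets.

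On the probe set with the highest mean over all 6 arrays, which is the one used by the rule, Nop56 read 8.78, 7.51 and 7.37 in the intact mice and 9.74, 10.5 and 10.2 in the preconditioned mice, a difference of 2.27 (limma adjusted p = 0.0610). This probe set had the highest mean only through the preconditioned mice, since in intact lungs it averaged 7.89 and the third probe set 8.37, so its p does not support a difference of Nop56. On another it read 5.60, 5.19 and 5.10 against 5.96, 6.00 and 6.13. On the third it read 8.45, 8.40 and 8.26 against 8.31, 8.24 and 8.31. The first and second had all preconditioned mice above all intact mice, and the third overlapped with a difference of -0.09. A further probe set, annotated to both Nop56 and the box C/D RNA Snord57, was at a mean of 11.5 in intact and 11.1 in preconditioned lungs, with all preconditioned mice below. The gene table also placed small nucleolar RNA genes inside Nop56. Besides Snord57 and Snord110 they were LOC115489609, LOC115489632 and LOC115489601, which had no probe set under their own symbols. Whether the first and second probe sets read Nop56 mRNA or RNA of such genes was not tested. For the probe set used by the rule, the call depended on the setting, with a limma adjusted p of 0.0483 among genes above the median level, 0.0193 with array weights and 0.0100 without intact replicate 1. In those settings 76 of 11090 genes, 1125 of 22180 and 1228 of 22180 passed.

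**Figure D2:**
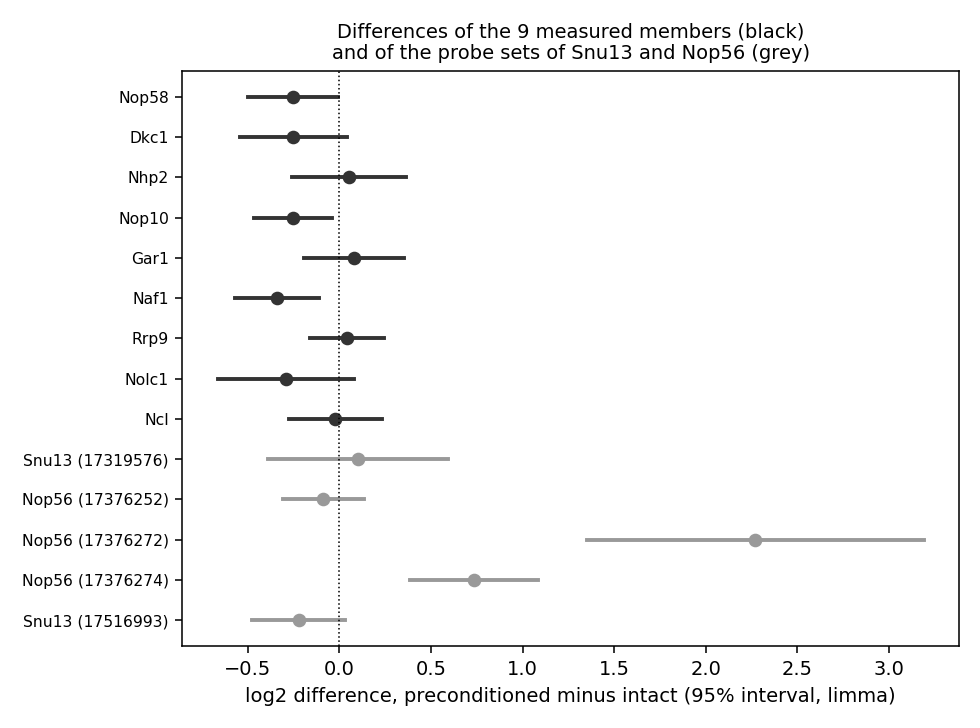
Log2 difference of preconditioned minus intact lungs (x axis, log2 units) with its 95% interval from limma for the 9 measured members (black) and for each single-symbol probe set of Snu13 and Nop56 (grey, labelled by probe set, intervals from a fit over all probe sets). The members lie between -0.34 and 0.08, while the probe sets of Nop56 spread from -0.09 to 2.27.

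Among the box H/ACA proteins, Naf1 and Nop10 had the lowest p-values of the whole set, and Gar1 and Nhp2 had differences near 0. Naf1 is an assembly factor that accompanies the immature particle and is replaced by Gar1 when the particle matures. Naf1 read 6.69, 6.91 and 6.82 in the intact mice and 6.38, 6.56 and 6.44 in the preconditioned mice. Every preconditioned mouse lay under every intact mouse, with 0.12 log2 units between the nearest of them. The means were 6.80 ± 0.11 and 6.46 ± 0.091 (SD, n = 3), a difference of -0.34 (95% interval -0.57 to -0.11, 1.27-fold lower, unadjusted p = 0.00866, limma adjusted p = 0.136). Over the alternative settings the difference lay between -0.40 and -0.29 and passed in none of them.

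Nop10 encodes the smallest core protein of the particle, which contacts dyskerin at its catalytic domain. It read 9.88, 9.97 and 9.78 in the intact mice and 9.59, 9.58 and 9.70 in the preconditioned mice. The groups did not overlap, although intact replicate 3 and preconditioned replicate 3 were close. The means were 9.88 ± 0.093 and 9.62 ± 0.066 (SD, n = 3), a difference of -0.25 (95% interval -0.47 to -0.04, limma adjusted p = 0.197). A repeated quantile normalization gave -0.15 and cyclic loess -0.12.

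Dkc1, the pseudouridine synthase gene, read 6.65, 7.09 and 6.90 in the intact mice and 6.61, 6.54 and 6.73 in the preconditioned mice. Intact replicate 1 lay among the preconditioned mice and the other two intact mice above them. The difference was -0.25 (95% interval -0.54 to 0.04, limma adjusted p = 0.320), and leaving out intact replicate 2 gave -0.15, leaving out intact replicate 1 -0.37.

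Gar1, which replaces Naf1 in the mature particle and helps load and release the substrate RNA, read 6.39, 6.70 and 6.58 in the intact mice and 6.54, 6.56 and 6.81 in the preconditioned mice. The groups overlapped, with a difference of 0.08 (95% interval -0.19 to 0.35, limma adjusted p = 0.744). Nhp2, which binds the RNA beside Nop10, read 7.14, 7.04 and 7.28 in the intact mice and 7.04, 7.48 and 7.09 in the preconditioned mice. A single preconditioned mouse, replicate 2, was high for Nhp2, and the others lay within the intact range. The difference was 0.05 (95% interval -0.26 to 0.36, limma adjusted p = 0.861) and was -0.09 without that mouse. The interval for Nhp2 includes the difference of Nop10, and that for Gar1 does not. Compared directly within each array, Nop10 minus Gar1 shifted by -0.33 (exact permutation test, two-sided p = 0.10, the smallest possible, and 0.36 after Benjamini-Hochberg adjustment over 36 member pairs). Any pair whose groups do not overlap gets that p, and 28.1% of pairs of genes above the median level were separated in this way. This pair was taken up after the differences of its members had been seen.

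Because Gar1 takes the place of Naf1 on the same particle, the pair was also compared within each array. The value of Gar1 minus that of Naf1 was -0.30, -0.21 and -0.23 in the intact mice and 0.16, -0.00012 and 0.36 in the preconditioned mice. The level of such a difference carries no meaning, since the probe sets differ, but its shift between groups does not depend on any scaling that moves a whole array. The shift was 0.42, and the groups did not overlap (exact permutation test, two-sided p = 0.10, the smallest that 3 against 3 allows, and 0.36 after Benjamini-Hochberg adjustment over all 36 member pairs). The pair was chosen after its values had been seen.

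Of the 36 pairs of measured members, 10 had within-array differences that did not overlap between the groups, against 28.1% of all pairs of genes above the median level. Of these, 4 lay among the 10 pairs of box H/ACA proteins. They were Gar1 against Naf1, Dkc1 against Gar1 (shift -0.33), Nop10 against Gar1 (-0.33) and Nhp2 against Naf1 (0.39). The share of separated pairs in the set was therefore close to that of genes above the median level.

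**Figure D3:**
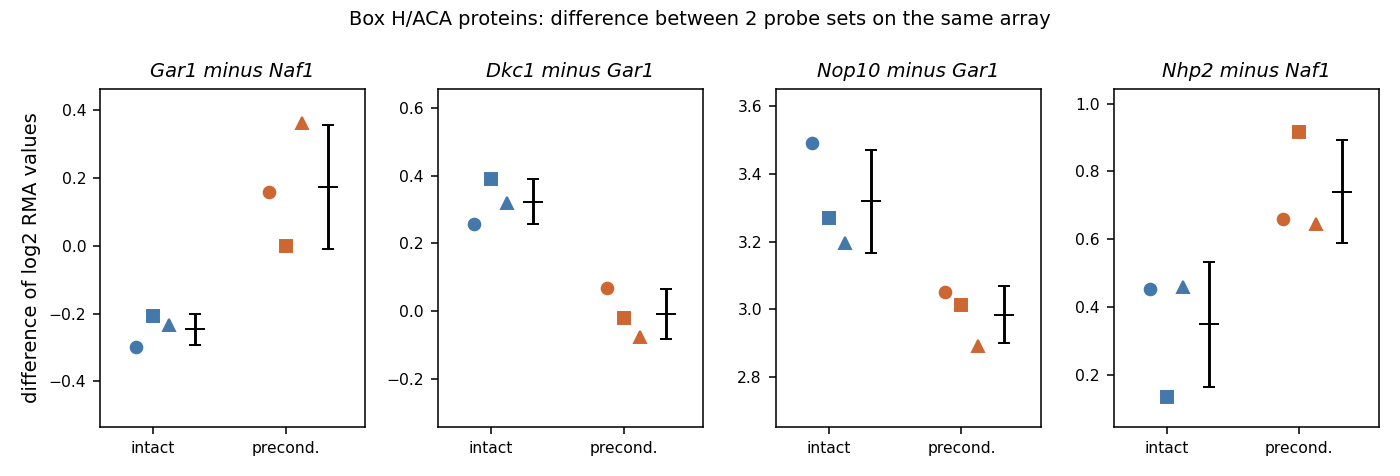
Difference between the log2 RMA values of 2 box H/ACA proteins on the same array (y axis, log2 units) for the 4 pairs of that class whose groups did not overlap. Points are mice, intact in blue and preconditioned in orange, and black bars are the mean ± SD. Gar1 minus Naf1 averaged -0.25 in intact and 0.17 in preconditioned lungs.

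The sequences upstream of the start sites of the box H/ACA core genes are shown because these genes encode subunits of a single particle and their differences ranged from -0.25 for Nop10 and Dkc1 to 0.08 for Gar1. Each is the 250 bases before the start site in RefSeq on GRCm38.p6, on the strand of the gene: Dkc1 at chrX:75095604-75095853 (+), Nop10 at chr2:112261676-112261925 (+), Gar1 at chr3:129831397-129831646 (-) and Nhp2 at chr11:51619523-51619772 (+). Capitals mark CCGGAAGT, the core of many ETS factor sites, read on either strand.
Dkc1: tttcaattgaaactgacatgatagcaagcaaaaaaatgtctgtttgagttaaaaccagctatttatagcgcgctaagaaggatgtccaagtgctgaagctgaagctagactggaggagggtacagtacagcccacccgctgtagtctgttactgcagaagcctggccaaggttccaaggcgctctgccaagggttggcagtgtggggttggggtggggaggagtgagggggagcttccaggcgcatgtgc
Nop10: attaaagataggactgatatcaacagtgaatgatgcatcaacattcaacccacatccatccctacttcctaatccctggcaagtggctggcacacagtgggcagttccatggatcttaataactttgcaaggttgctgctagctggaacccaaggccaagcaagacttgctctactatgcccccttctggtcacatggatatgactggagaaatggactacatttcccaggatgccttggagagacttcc
Gar1: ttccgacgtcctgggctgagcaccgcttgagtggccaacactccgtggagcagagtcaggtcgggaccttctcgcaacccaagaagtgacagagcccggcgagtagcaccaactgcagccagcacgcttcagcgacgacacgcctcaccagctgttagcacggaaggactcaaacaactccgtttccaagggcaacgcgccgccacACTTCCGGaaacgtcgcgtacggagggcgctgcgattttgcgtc
Nhp2: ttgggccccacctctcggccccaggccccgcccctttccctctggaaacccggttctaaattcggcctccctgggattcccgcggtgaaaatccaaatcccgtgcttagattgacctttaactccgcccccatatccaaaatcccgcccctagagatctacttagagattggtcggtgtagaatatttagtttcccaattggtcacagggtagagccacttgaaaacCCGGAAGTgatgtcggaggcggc

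Windows from 250 bases before to 50 after the start were in the table for 8 of the 10 genes. Naf1 and Fbl were without one. Of a pair of motifs searched on both strands, CCGGAAGT was found in the windows of Gar1, from position -44, and Nhp2, from position -23, and in 3.89% of all 32851 windows. CACGTG, the E-box that MYC and MAX can bind, was in none of the 8 windows and in 7.15% of all. The share of G and C was 63.0% in the Gar1 window, 55.3% in Nhp2, 53.0% in Dkc1 and 49.3% in Nop10, beside a median of 52.7% over all windows.

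Nolc1 and Ncl encode nucleolar phosphoproteins that are not core subunits. The Nolc1 product, Nopp140, is a chaperone of both classes of particle and moves between nucleolus and Cajal bodies. Nolc1 read 7.67, 7.52 and 7.62 in the intact mice and 7.05, 7.19 and 7.69 in the preconditioned mice. Preconditioned replicates 1 and 2 lay under all intact mice and replicate 3 above all of them, the widest range of any member within a group, 0.64. The difference was -0.29 (95% interval -0.66 to 0.08, limma adjusted p = 0.362), -0.48 without preconditioned replicate 3 and -0.16 without preconditioned replicate 1.

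Ncl encodes nucleolin, an abundant nucleolar protein of ribosomal RNA transcription and processing. It read 8.88, 9.10 and 9.07 in the intact mice and 8.83, 9.05 and 9.09 in the preconditioned mice. The groups covered nearly the same range, and the difference was -0.02 (95% interval -0.28 to 0.23, limma adjusted p = 0.933). Its sign turned under both further normalizations of the distribution, 0.09 with a repeated quantile normalization and 0.11 with cyclic loess.

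The mice differed in how many members were high. Intact replicate 2 had the highest value of all 6 mice for 5 members, and preconditioned replicate 1 the lowest for 4. Taken as the mean deviation of the 9 members from their own averages, the intact mice stood at -0.01, 0.13 and 0.09 and the preconditioned mice at -0.17, -0.03 and -0.0036. Intact replicate 1 therefore stood between the preconditioned mice by this measure. That mouse also stood apart from the other intact mice over all genes, at -0.51 on the first principal component beside -26.5 and -28.4, with the preconditioned mice between 12.3 and 25.8.

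Some members carry small RNA genes inside them. The gene table placed 8 small RNA genes within the bounds of members, 7 of them small nucleolar RNAs, in Nop58 (4), Ncl (3) and Dkc1 (1), and 4 of the 8 had a probe set of their own. Inside Nop58, the box C/D RNA Snord70 read 8.51, 8.56 and 8.36 in the intact mice and 8.31, 8.85 and 8.45 in the preconditioned mice, a difference of 0.06 (limma adjusted p = 0.851). Snord11, also inside Nop58, read 8.66, 9.53 and 9.42 against 8.87, 8.94 and 9.27, a difference of -0.18 (limma adjusted p = 0.700). Both overlapped between the groups, with preconditioned replicate 2 highest of its group for Snord70 as for Nop58.

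Inside Ncl, the box C/D RNA Snord82 read 11.90, 12.04 and 11.96 in the intact mice and 11.90, 12.09 and 12.09 in the preconditioned mice, a difference of 0.06 (limma adjusted p = 0.763). The box H/ACA RNA Snora75 read 7.17, 6.48 and 6.86 against 6.14, 7.11 and 6.93, a difference of -0.11 (limma adjusted p = 0.850). Snora75 varied more between mice of a group than between the groups, and none of these 4 RNAs passed the threshold.

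**Figure D4:**
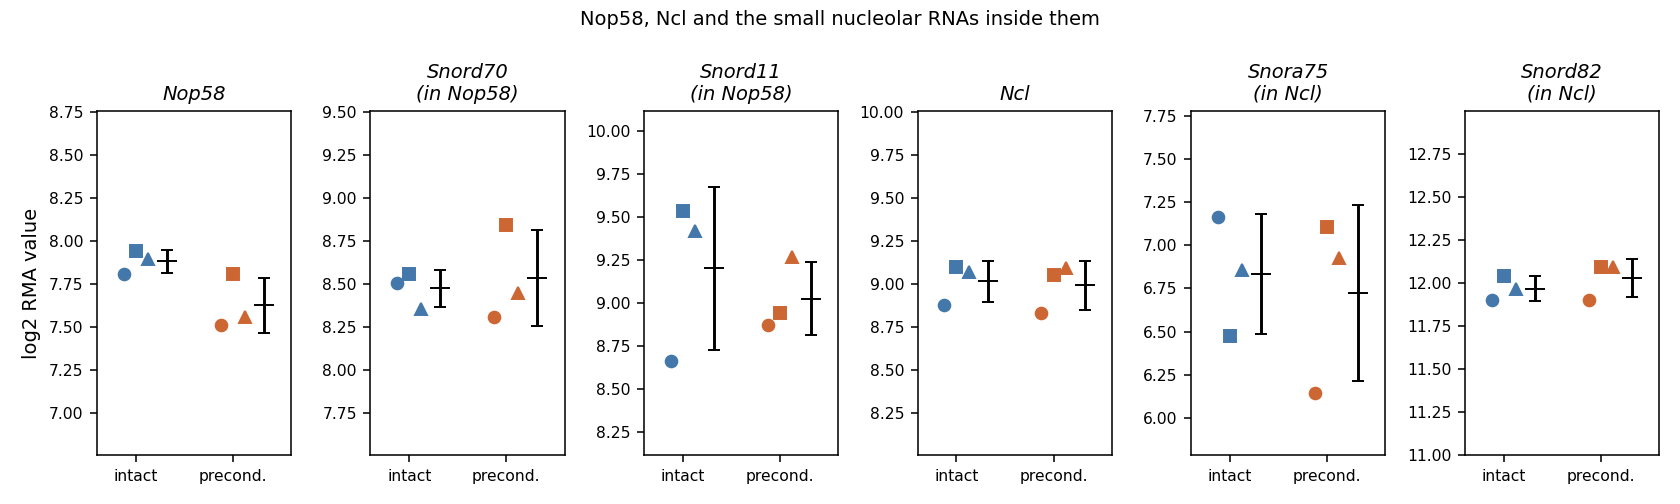
Log2 RMA values (y axis, log2 units, the same span in every panel) of Nop58 and Ncl and of the 4 measured small nucleolar RNAs that lie inside them. Points are mice, intact in blue and preconditioned in orange, and black bars are the mean ± SD. Values of the groups overlap in all 6 panels.

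For the guide RNA classes as a whole, of 47 box C/D RNAs measured, 38 had a difference above 0, with a median of 0.39, and 24 had all preconditioned mice above all intact mice, against 11.7% of all genes. Of 26 box H/ACA RNAs, 22 had a difference above 0, with a median of 0.68, and 18 were separated in that direction, against the same 11.7%. Over all genes, 11698 of 22180 differences were above 0. The threshold over all genes was passed by 2 of the first and 1 of the second, against 0.0947% of all genes. The differences of the 9 measured members ranged from -0.34 to 0.08, while the probe set shared by Fbl and Tulp4 was at 0.26. The single-symbol probe sets of Nop56 were between -0.09 and 2.27, and the probe set shared by Nop56 and Snord57 was at -0.36. A difference between the guide RNAs and the proteins as groups was not tested.

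Other genes of snoRNP and ribosome biogenesis were read from lists drawn up by function, and none of their members passed the threshold over all genes. In the small subunit processome, the complex built around U3 on the ribosomal RNA precursor, 22 of 32 differences were below 0 (median -0.16), and 11 lower and 1 higher had an unadjusted p under 0.05. Above the median level, where 30 of the 32 lay, 64.6% of all genes were below 0 and 20.1% were lower at that p. The 11 became 7 with a repeated quantile normalization and 5 without intact replicate 2, beside 14.1% and 12.9% of genes above the median level. Leaving out intact replicate 3, preconditioned replicate 2 or preconditioned replicate 3 gave 6, beside 12.6%, 16.2% and 16.6%. With the replicate number as a block it was 6, beside 18.0%. The count rose to 14 with array weights, beside 25.9%. It was 12 with median centring and without intact replicate 1, beside 25.7% and 26.6%. Wdr46 was at -0.82 (limma adjusted p = 0.0763), from 7.66 ± 0.26 to 6.84 ± 0.089 (SD, n = 3). Utp4 was at -0.61, Heatr1 at -0.40 and Noc4l at -0.47 (limma adjusted p from 0.119 to 0.152), and in all 4 the groups did not overlap. These 4 were named for the largest moderated t of the list, so their separation adds no support. Over the list, 12 of 32 were separated with lower values and 1 with higher ones, beside 22.2% lower among genes above the median level. Noc4l averaged 5.97 in intact and 5.50 in preconditioned lungs, so only its intact mean exceeded the median level of all genes, 5.95.

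In the list of large subunit assembly factors, 32 of 36 differences were below 0 (median -0.15), and 11 lower and 0 higher had an unadjusted p under 0.05, beside the same 20.1%. The 11 became 6 with a repeated quantile normalization, with cyclic loess and without intact replicate 3. The share of genes above the median level there was 14.1%, 14.2% and 12.6%. The count rose to 13 with median centring, with array weights and without intact replicate 1, beside 25.7%, 25.9% and 26.6%. The RNA methyltransferase gene Nop2 was at -0.39 (limma adjusted p = 0.0987). The helicase gene Ddx18 was at -0.50, Rpf1 at -0.40 and Rbm28 at -0.29 (limma adjusted p from 0.119 to 0.145). These 32 of 36 compare with 64.6% of genes above the median level, where 34 of the 36 lay. With a repeated quantile normalization or cyclic loess it was 24 of 36, beside 53.5% and 53.9% of the genes above the median level. Without intact replicate 1, and also with array weights, 3 genes of the small subunit list and 1 of the large subunit list passed the threshold. Over all 22180 genes, 1228 and 1125 passed in those settings.

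Factors that build and move snoRNPs were spread around 0, with 7 of 13 differences below 0 (median -0.0040), Tgs1, the cap hypermethylase gene, at -0.27, the export receptor gene Xpo1 at -0.24, Znhit6 at 0.24 and Nufip1 at -0.14 (limma adjusted p from 0.312 to 0.453). None of them had an unadjusted p under 0.05. Of the 13, 10 lay above the median level, where 64.6% of all differences were below 0. Among 7 genes of 3′ end processing and decay, Pabpn1, a nuclear poly(A) binding protein gene, was at 0.57 (limma adjusted p = 0.103) and the exosome nuclease genes Exosc10 and Dis3 at -0.23 and -0.21, with Tent4b at -0.21. Pabpn1 passed without intact replicate 1 (limma adjusted p = 0.0141) and with array weights (0.0317), where 1228 and 1125 of all 22180 genes passed.

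RNA polymerase I genes had 8 of 13 differences below 0 (median -0.06). Of the 13, 12 lay above the median level, where 64.6% of all differences were below 0. Polr1c was at -0.27, Taf1d at 0.23, Polr1a at -0.18 and Polr1d at -0.15 (limma adjusted p from 0.215 to 0.473). Modifying enzymes that act without a guide RNA had 8 of 19 below 0 (median 0.02), and 13 of the 19 lay above the median level. The dimethyltransferase gene Dimt1 was at -0.54 and the pseudouridine synthase gene Rpusd3 at 0.29 (limma adjusted p = 0.104 and 0.167). Zcchc4 was at -0.20 and Nsun5 at -0.28 (limma adjusted p = 0.289 and 0.348). Nsun5 averaged 6.04 in intact and 5.76 in preconditioned lungs, so only its intact mean exceeded the median level of all genes, 5.95. The telomere list, given because dyskerin serves telomerase, had 7 of 12 below 0 (median -0.10), and 10 of the 12 lay above the median level. In that list Terc, the telomerase RNA, was at 0.33 (limma adjusted p = 0.180). Terc averaged 5.75 in intact and 6.08 in preconditioned lungs, so only its preconditioned mean exceeded the median level of all genes. Pot1a, Terf2ip and Acd of the telomere-binding complex were at -0.39, -0.47 and -0.36 (limma adjusted p from 0.134 to 0.228). In the MYC network, whose members control many nucleolar genes, 7 of 13 were below 0 (median -0.05). Of that list, 10 genes lay above the median level. Mlx was at -0.48, Mxd1 at -0.45, Mlxip at -0.32 and Max at -0.21 (limma adjusted p from 0.138 to 0.275). Without intact replicate 1, where 1228 of all 22180 genes passed the threshold, 2 genes of the telomere list and 2 of the MYC network did. With array weights, where 1125 passed, so did 1 of the modifying enzymes and 1 of the MYC network. With every probe set taken singly, where 23 of 23521 passed, so did 1 probe set of the RNA polymerase I list.

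**Figure D5:**
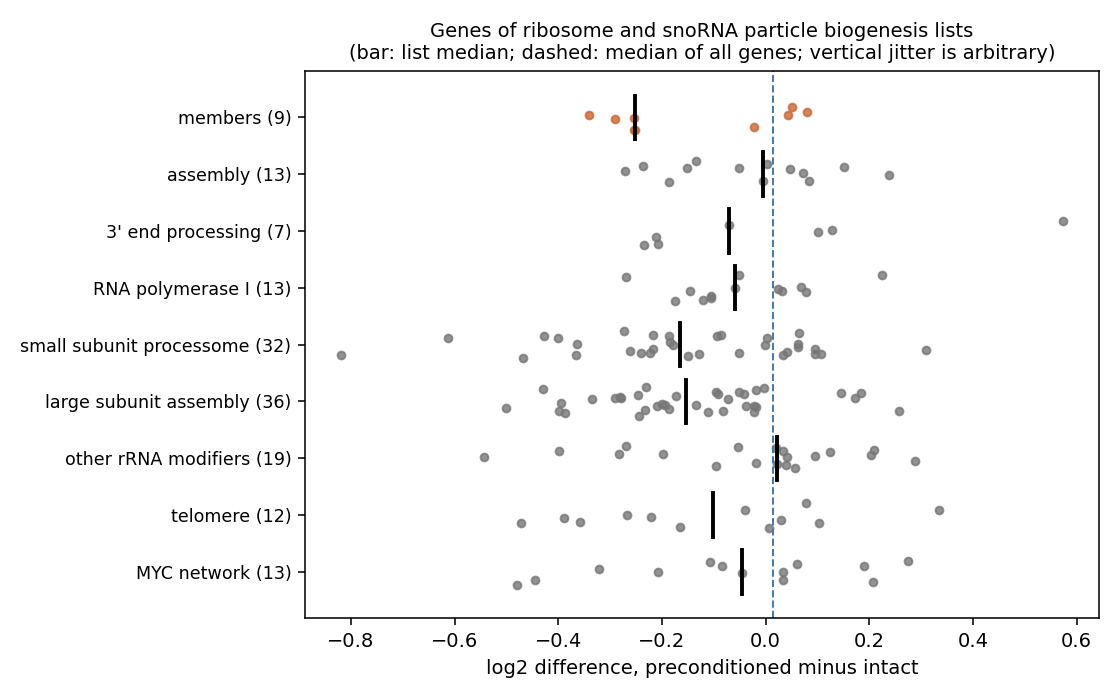
Log2 difference of preconditioned minus intact lungs (x axis, log2 units) for each measured gene of the snoRNP set (orange) and of 8 functional lists (grey), with the number measured in brackets. Black bars are list medians, from -0.25 for the snoRNP proteins to 0.02 for the other modifying enzymes, and the dashed line is the median of all genes at 0.01. Among genes above the median level, where most of these genes lie, the median difference was -0.09.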

How the data were processed

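The deposited values are log2 values made by the authors with RMA, an algorithm of background correction, quantile normalization and probe summary, and limma is also named, per the submitters' processing notes. Tool versions and genome build: not given in the sources used here. Each mouse had 100 ng of RNA labelled, per the labels' protocols. Of 41345 probe sets, 23521 carried exactly 1 symbol in the platform annotation, 1814 several and 16010 were not listed. For each of the resulting 22180 genes the probe set with the highest mean was used. Genes were fitted with limma 3.58.1 in R 4.3.3 (lmFit, eBayes without trend, no covariate, no filter), preconditioned minus intact, with Benjamini-Hochberg adjustment over all genes and a threshold of 0.05.

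The members and lists were chosen with earlier results of these data known. All members were named, as were up to 4 genes of each list by largest moderated t whose higher group mean exceeded the median level, and the small RNA genes inside members. List members were matched by symbol or, through a GRCm38.p6 gene table, by older symbol. The labels call the mice biological replicates. The alternatives tried were restriction to genes above the median level, 3 further normalizations, a trended robust prior, array weights, a replicate block, other uses of probe sets, an adjusted p under 0.1 and leaving out each array. Figures were drawn with matplotlib 3.10.9.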

Additional observations from a re-analysis of the deposited data

How the results depend on the processing

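No member passed the threshold in any setting tried, while the count over all genes moved widely. It was 21 as reported, 76 among genes above the median level, 55 with an intensity trend and robust prior, 1125 with array weights, 642 at an adjusted p under 0.1, and between 2 and 1228 when each array was left out in turn, the highest without intact replicate 1 and the lowest without intact replicate 2 or preconditioned replicate 3. Median centring gave 16 lower and 6 higher genes in place of 13 and 8. At an unadjusted p under 0.05 the split over all genes was 2569 lower and 1670 higher, 2045 and 1630 with a repeated quantile normalization, 2158 and 1514 with cyclic loess and 3337 and 1028 with median centring. The cause of these shifts was not tested.

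The median difference of the members stayed below 0 in every setting, from -0.30 to -0.12. Naf1, Nop10, Nop58, Dkc1 and Nolc1 kept a difference below 0 in all 15 alternatives that give one, while Gar1 and Nhp2 kept their sign in 13, Rrp9 in 14 and Ncl in 10. Some of the 15 could not change a member's difference and so count as kept signs for every member. They are the restriction to genes above the median level, the trended robust prior, the replicate block and the other uses of probe sets. Counts of list genes below 0 under the alternatives were computed after the data had been seen.

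With the replicate number as a block, 4 genes passed and no member did (lowest member adjusted p = 0.218). Same-numbered deviations correlated at -0.06, -0.31 and -0.06 over genes, and 0 of 6 arrays were closest to their own number. These values showed no sign of a pairing by number. With so few mice they cannot exclude a pairing that has a small effect on expression, so whether the numbers pair the mice is not known.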
